A study of Homo sapiens with 18 samples.

Results

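The genes described here are those whose change upon EMT in A549 cells differed from the change in HCC827 and NCI-H358 cells. For each of the 19849 genes of the table, the change in A549 (mesenchymal minus parental, log2) was set against the mean of the changes in the other lines, and this difference of the change was tested with limma. A gene was called when the Benjamini-Hochberg adjusted p was below 1e-05 and the difference was beyond 5-fold (2.32 on the log2 scale). There were 449 such genes of 19849, of which the difference was higher in A549 for 302 (1.52% of the genes tested) and lower for 147 (0.741%). Genes just outside the threshold were B3GNT2, OASL and LSR, at 2.319, 2.32 and 2.322, and genes just inside were RNF144B, HMCN1 and QPCT, at 2.323, -2.329 and 2.332.

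A549, HCC827 and NCI-H358 are established human lung cancer cell lines, and the study grew all of them in the same medium. The parental groups had no added TGFβ, and the mesenchymal groups were cultured with 2 ng/ml TGFβ for 3 weeks and moved to medium without it the day before lysis. Each of the 6 groups had 3 arrays, 18 in all, which the study describes as separate samples made at the same time, so that p values measure the spread between such samples. The study's methods give a shorter range of treatment for A549 than for the other lines, so cell line and length of treatment cannot be told apart in any difference below.

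EMT, the epithelial-mesenchymal transition, is the process by which epithelial cells give up their junctions and polarity and take on a motile, matrix-producing state. TGFβ drives it through SMAD proteins and through transcription factors such as ZEB1, ZEB2, SNAI1 and SNAI2, which bind E-box sequences in the promoters of epithelial genes and repress them. HCC827 carries mutant EGFR, and A549 is known for a KEAP1 mutation that leaves the transcription factor NRF2 active.

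The epithelial label was checked with EPCAM and the keratin genes KRT8, KRT18 and KRT19. EPCAM, an epithelial surface protein, was at 7.73, 7.65 and 7.41 in parental A549 arrays, whereas it was at 13.72, 13.53 and 13.55 in parental HCC827 and 13.64, 13.65 and 13.73 in parental NCI-H358. EPCAM fell in each line, with a difference of the change of -0.22 (adjusted p = 0.0971) and a parental difference of -6.04. The change of the keratin genes was less negative in A549, with differences of the change of 1.03 for KRT8 (adjusted p = 3.35e-08), 1.08 for KRT18 (adjusted p = 9.55e-10) and 1.03 for KRT19 (adjusted p = 3.31e-06). In A549 itself KRT8, KRT18 and KRT19 changed by -0.54, -0.34 and -3.19. Mean levels of the 5 leukocyte markers lay between 2.83 and 6.09 in every group, and those of the 4 endothelial markers between 3.82 and 6.2, against 4.57 to 14.1 for the 4 epithelial genes. As in any bulk sample, fewer cells of a kind and less RNA per cell cannot be told apart.

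A549 differed from the other lines in more genes than either of them did when put in its place. With the same contrast, 306 genes (1.54%) set HCC827 apart and 349 (1.76%) set NCI-H358 apart. Between pairs of lines, 579 genes changed unequally in A549 and HCC827, 597 in A549 and NCI-H358 and 409 in NCI-H358 and HCC827. These contrasts share arrays, and the larger count for A549 was not itself tested. For 435 of the 449 genes the change in A549 differed from that of each other line in the same direction with an adjusted p below 0.05, and the other 14 rested on 1 of them.

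The 449 genes were then sorted by what each line did, with a line counted as changed when its own adjusted p was below 0.05 and its change beyond 2-fold. By that rule 1592 genes changed in A549 (8.02%), compared with 2278 in HCC827 (11.5%) and 1862 in NCI-H358 (9.38%). Among the 449, 27 genes changed in opposite directions in A549 and in both other lines, 67 opposed 1 of the other lines, 110 changed in A549 only, 131 changed in both other lines but not in A549, and 23 changed in 1 of the other lines only. A further 85 changed in the same direction by unequal amounts and 6 fell under none of these. The classes were made from the changes themselves, so their sizes are descriptions.

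**Figure D1:**
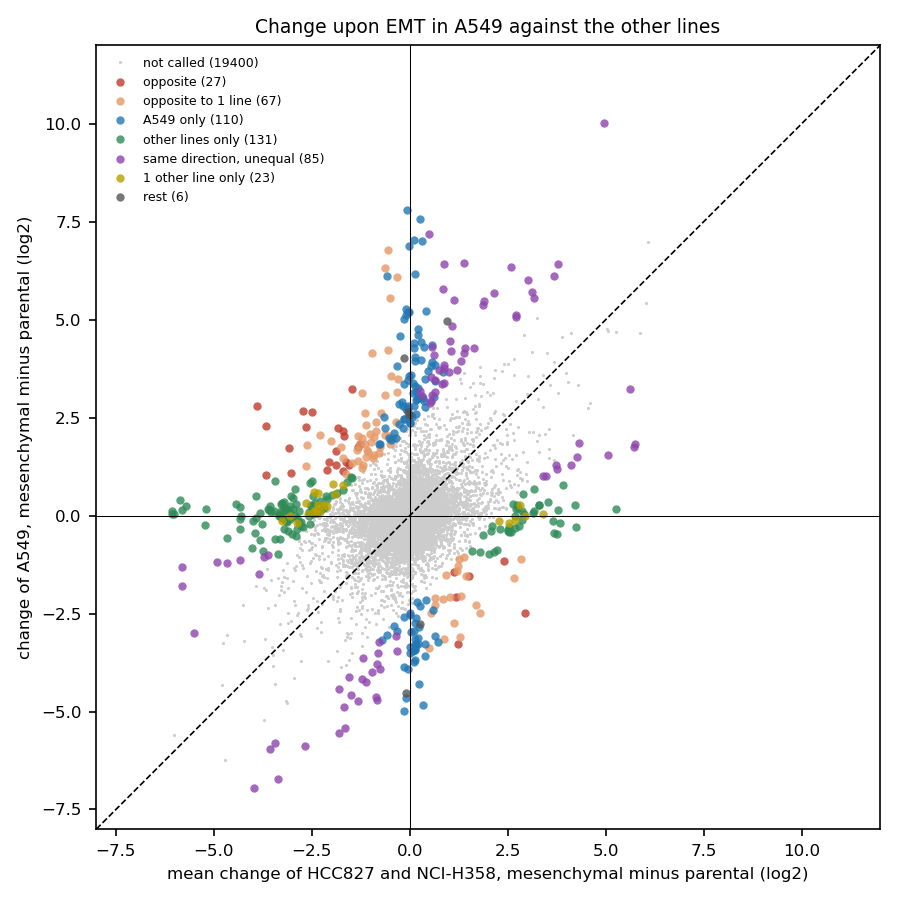
Change upon EMT in A549 (vertical axis, log2, mesenchymal minus parental) against the mean change of HCC827 and NCI-H358 (horizontal axis, log2). Each point is 1 of 19849 genes, with the 449 called genes coloured by class, and the dashed line marks equal change. The 110 genes changed in A549 only lie along the vertical axis, the 131 changed in the other lines only lie along the horizontal axis, and the 27 with opposite directions lie at the upper left and lower right.

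With lines called beyond 2-fold, directions opposite to both other lines were rarer among the called genes than a change in A549 only (27 and 110). With lines called beyond 1.5-fold the counts were close, at 63 and 69. The counts that follow use the 2-fold call. Of the 824 genes that rose in A549, 151 rose in both other lines, 22 fell in both and 337 changed in neither. Of the 768 that fell in A549, 180 fell in both other lines, 6 rose in both and 333 changed in neither. At the threshold for the difference of the change, 21 genes rose in A549 and fell in both other lines, and 6 fell in A549 and rose in both.

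TGFA, which encodes the EGFR ligand transforming growth factor alpha, had the largest opposite change. It was at 8.38, 8.73 and 8.87 in parental and 11.41, 11.53 and 11.45 in mesenchymal A549 arrays. In HCC827 it went from 8.77, 8.91 and 8.84 to 5.43, 4.97 and 5.38, and in NCI-H358 from 10.80, 10.98 and 11.18 to 6.95, 6.53 and 6.77. Parental A549 and HCC827 overlapped, and every mesenchymal A549 array was above every mesenchymal array of the other lines (log2 difference of the change 6.71 ± 0.174 (SE), adjusted p = 2.55e-14). TGFA rose 6.97-fold in A549 and fell 12-fold and 18.8-fold in HCC827 and NCI-H358.

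ITGB6 encodes the epithelial integrin chain that pairs with integrin alpha v and releases active TGFβ from its latent complex. Its level was 6.78, 6.84 and 6.44 in parental and 9.10, 8.96 and 8.78 in mesenchymal A549 arrays. It was 10.99, 10.68 and 10.59 and then 8.45, 8.08 and 8.49 in HCC827, and 10.18, 10.36 and 10.61 and then 7.70, 7.50 and 7.38 in NCI-H358. A549 had the lowest parental and the highest mesenchymal arrays, so the order of the lines was turned (log2 difference of the change 4.90 ± 0.183 (SE), adjusted p = 1.62e-12).

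FOXA1, a pioneer transcription factor of foregut epithelium, was turned in the same way. It went from 6.80, 6.73 and 6.76 to 8.95, 9.09 and 8.97 in A549. In HCC827 it went from 8.97, 8.40 and 8.47 to 6.84, 6.72 and 6.84, and in NCI-H358 from 7.24, 7.17 and 7.42 to 5.65, 5.23 and 5.41, without overlap between parental and mesenchymal arrays of any line (log2 difference of the change 4.07 ± 0.156 (SE), adjusted p = 2.25e-12). Of the other foregut factors on its list, GATA6 rose in A549, by a log2 difference of the change of 1.52, with changes of -0.12 and 0.07 in HCC827 and NCI-H358, and FOXA2 fell in every line.

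EFNA1, an ephrin ligand tethered to the cell surface, rose 6.28-fold in A549 and fell 6.91-fold and 4.55-fold in the other lines. PRRG4, a membrane protein with a Gla domain, rose 4.91-fold and fell 7.06-fold and 22.6-fold. Both were lower in parental A549 than in the other parental lines, PRRG4 by 21.4-fold and EFNA1 by 3.3-fold. MYO1D, an unconventional myosin, and GPR160, an orphan receptor, differed in their change by 5.40 and 4.81 on the log2 scale, also rising in A549.

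The 6 genes that fell in A549 and rose in both other lines were QKI, PAPLN, PRDM1, PCDH9, CXXC5 and IRS1. QKI encodes an RNA-binding protein that regulates splicing and the making of circular RNAs and is known to increase during EMT. It was at 8.55, 8.77 and 8.93 in parental and 6.34, 6.06 and 6.39 in mesenchymal A549 arrays. It went from 4.98, 5.34 and 5.33 to 8.57, 8.61 and 8.64 in HCC827 and from 3.74, 4.12 and 4.00 to 6.20, 6.52 and 6.59 in NCI-H358. Parental A549 arrays were above all other parental arrays, and mesenchymal A549 arrays overlapped those of NCI-H358 and were below those of HCC827 (log2 difference of the change -5.42 ± 0.165 (SE), adjusted p = 1.37e-13).

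PRDM1, a transcriptional repressor best known from lymphocytes, fell 2.24-fold in A549 and rose 11-fold and 2.58-fold in HCC827 and NCI-H358. IRS1, the adaptor of the insulin and IGF1 receptors, began within 2-fold in the lines (parental difference -0.22) and parted afterwards, to a difference of -2.78 between mesenchymal cells. PCDH9, a protocadherin, stayed highest in A549 before and after, by 5.11 and 1.85. PAPLN, a secreted matrix protein, fell 9.62-fold in A549 and rose 2.12-fold and 2.58-fold.

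**Figure D2:**
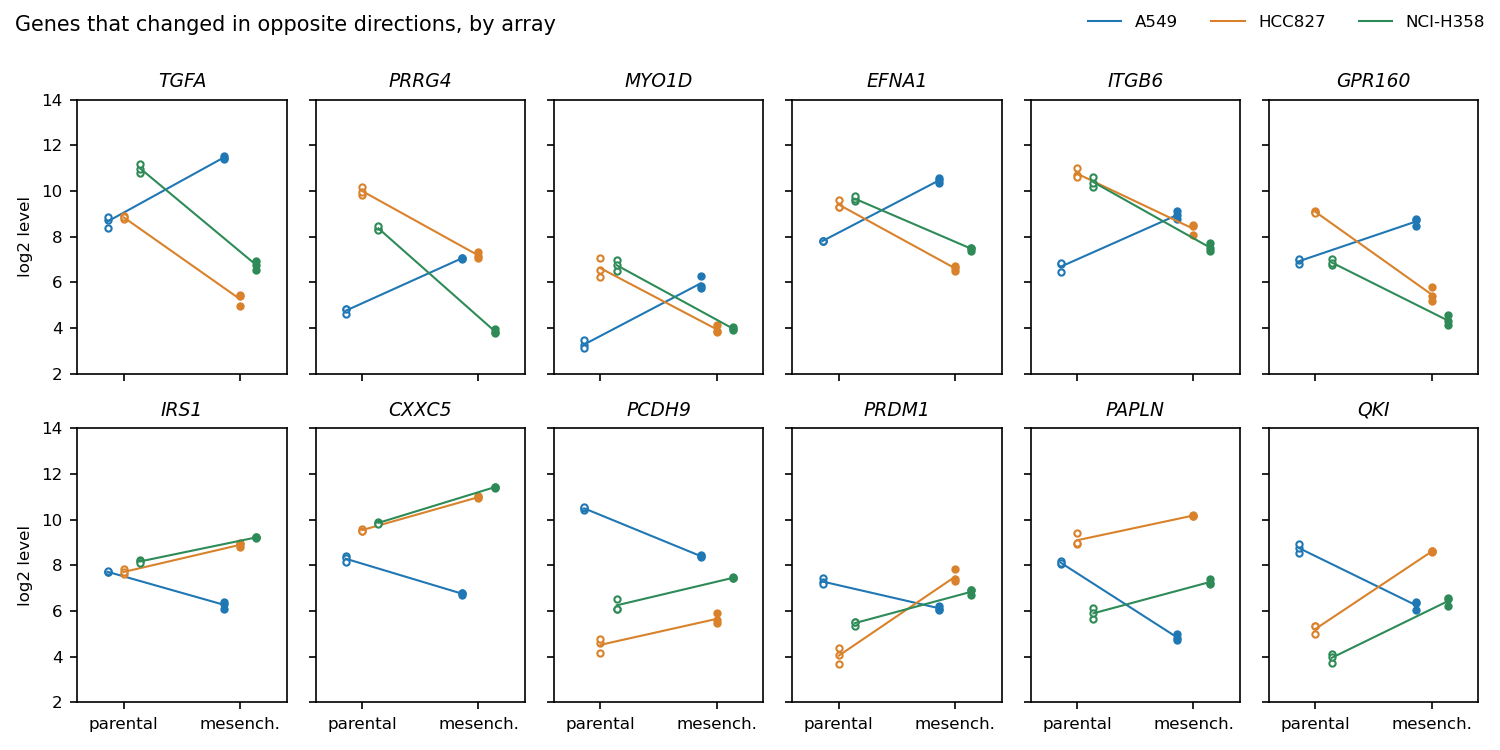
Log2 level by array of the 6 genes with the largest opposite change that was higher in A549 (upper row) and of the 6 that was lower (lower row). Open circles are parental and filled circles mesenchymal arrays, 3 per group, and lines join group means. In every panel A549 slopes the other way from both other lines.

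The parental level and the change are tied by arithmetic, because the difference of the change is the difference between mesenchymal cells minus the difference between parental cells and uses the same arrays. The medians below are therefore descriptions. Over all 19849 genes, parental A549 was called higher than the mean of the other parental lines for 1617 (8.15%) and lower for 1874 (9.44%), and mesenchymal A549 higher for 1478 (7.45%) and lower for 1781 (8.97%). The median parental difference over all genes was 0.030.

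For the 21 genes that rose in A549 against the others, parental A549 was lower for 16, higher for 3 and not called for 2, with a median parental difference of -2.38 and a median mesenchymal difference of 1.54. The order of the lines was turned for 8 of the 21, 7 stayed on the same side, 4 differed between parental cells only and 2 between mesenchymal cells only. The median level of these genes went from 6.68 to 8.66 in A549 and from 9.18 to 6.57 in the other lines. When the genes were called without 1 parental array of each line and the parental difference was read from the arrays left out, the median was -2.06, -2.33 and -2.78 for the 3 choices. For the genes that fell in A549 and rose in the others, which numbered 6, 7 and 7 in these calls, it was 0.15, 1.57 and 1.86.

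**Figure D3:**
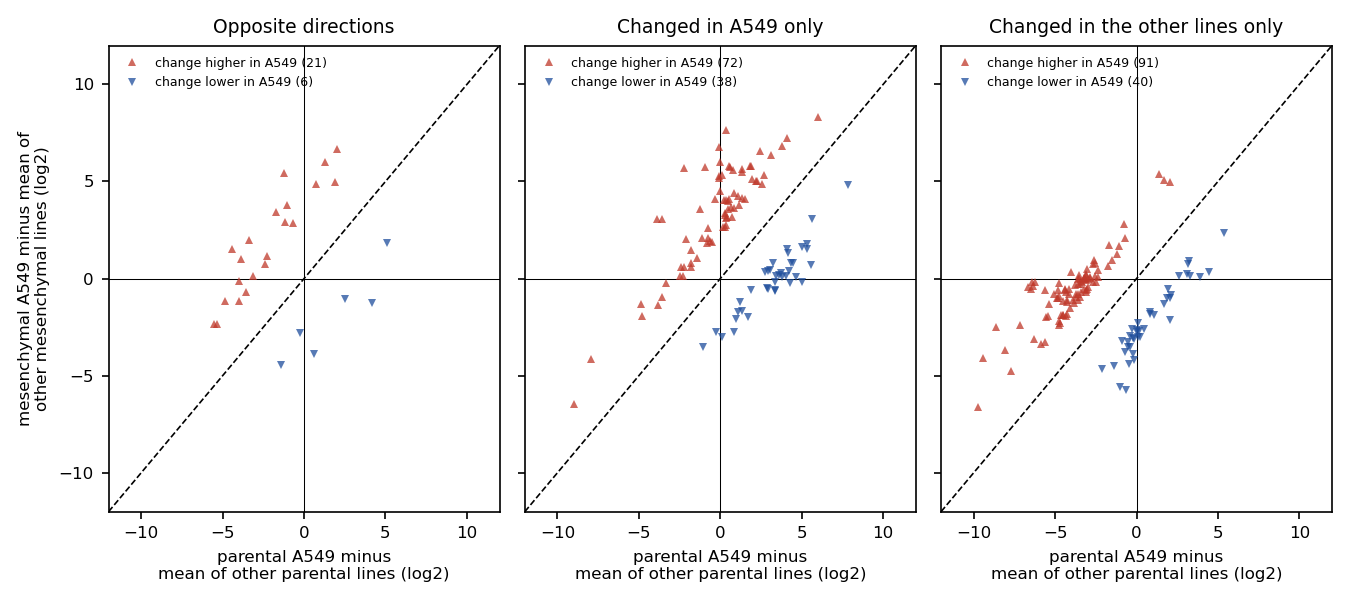
Difference between A549 and the mean of the other lines in parental cells (horizontal axis, log2) and in mesenchymal cells (vertical axis, log2) for 3 classes of called genes. Each triangle is a gene, pointing up where the change was higher in A549 and down where it was lower, and the dashed line marks an equal difference before and after. Among genes changed in the other lines only, 86 of the 91 upward triangles had a called lower parental level in A549.

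Of the 131 genes changed in the other lines only, 91 fell in both HCC827 and NCI-H358 and 40 rose in both. Among the 91, parental A549 was lower than the other parental lines for 86, with a median parental difference of -3.72, and the median difference between mesenchymal cells was -0.54. The lines differed as parental cells only for 55 of the 91, in both states in the same order for 31, with the order turned for 3 and as mesenchymal cells only for 2. The 95% confidence interval of the change in A549 lay within 2-fold for 80 of the 91.

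Parental A549 was in the dim range of the arrays for 55 of these 91 genes (60.4%), below 4.67, the lower quartile of all values, against 25.3% of all genes. Probe sets differ in background, and from such a level little further fall could be measured. With the parental difference read from parental arrays that were left out of the calls, A549 was lower by more than 2-fold for 87 of 94, 91 of 98 and 82 of 89 genes.

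RAB25, a small GTPase of epithelial recycling endosomes, led the class. It was at 4.65, 4.70 and 4.71 in parental and 4.95, 5.06 and 5.27 in mesenchymal A549 arrays. In HCC827 it fell from 10.94, 10.46 and 10.56 to 5.05, 5.01 and 5.20, and in NCI-H358 from 11.70, 11.51 and 11.55 to 5.40, 5.52 and 5.33. Mesenchymal A549 and HCC827 arrays overlapped, and the parental arrays were 86.4-fold apart (log2 difference of the change 6.27 ± 0.135 (SE), adjusted p = 4.77e-15).

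ESRP1 and ESRP2 encode the epithelial splicing regulators that set the epithelial isoforms of FGFR2, CD44 and other transcripts. ESRP1 was at 3.54, 3.58 and 3.46 in parental and 3.46, 3.47 and 3.78 in mesenchymal A549 arrays. It fell from 12.35, 12.15 and 12.08 to 7.45, 6.96 and 7.32 in HCC827 and from 12.06, 12.03 and 12.10 to 4.89, 4.92 and 4.77 in NCI-H358. A549 was below the other lines in both states, with no overlap (log2 difference of the change 6.12 ± 0.139 (SE), adjusted p = 8.83e-15). ESRP2 fell 17.6-fold and 11.5-fold in those lines, with a change of 0.08 in A549.

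GRHL2 and EHF, transcription factors that keep epithelial genes active, showed the same form. GRHL2 was at 3.89, 4.01 and 3.60 in parental and 3.79, 3.62 and 3.93 in mesenchymal A549 arrays, and fell from 8.76, 8.53 and 8.57 to 4.60, 4.46 and 5.13 in HCC827. In NCI-H358 it fell from 8.08, 7.90 and 7.65 to 3.79, 3.98 and 3.98, so that A549 and NCI-H358 overlapped as mesenchymal cells (log2 difference of the change 3.87 ± 0.191 (SE), adjusted p = 4.85e-11). EHF fell 34-fold and 41.9-fold, with a parental difference of -5.61. MPZL2, an epithelial adhesion protein, TMEM30B, a flippase subunit, ADGRF1, an adhesion receptor, and ERP27, a protein of the endoplasmic reticulum, differed in their change by 6.20, 5.96, 6.07 and 5.95.

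MUC1 and MUC16, membrane mucins of the airway surface, fell in both other lines but unequally. MUC1 fell 44.4-fold in HCC827 and 2.74-fold in NCI-H358, and MUC16 26.8-fold and 3.84-fold. In A549 MUC1 was at 6.84, 6.80 and 7.01 before and 6.85, 7.21 and 6.95 after, overlapping. The claudin gene CLDN7 and the P-cadherin gene CDH3 also fell in both other lines, with changes of -0.15 and -0.27 in A549. Without parental A549 array 3 the difference of the change of CDH3 was 2.31, short of the threshold.

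Of 22 epithelial junction and polarity genes, the difference of the change was higher in A549 for 14 and lower for 1 at an adjusted p below 0.05 and 2-fold, where 6.24% and 4.89% of all genes passed. The counts of the other lists below use the same thresholds and are to be read beside the same shares. The median difference over the list was 1.17, against -0.024 over all genes, and 17 of the 22 were lower in parental A549. Of 19 epithelial transcription factors and splicing regulators, 11 were higher and 2, KLF4 and QKI, lower, with a median of 1.88. The exception among junction genes was CDH1, the gene for E-cadherin. CDH1 was at 9.54, 9.23 and 9.21 in parental and 3.27, 3.51 and 3.76 in mesenchymal A549 arrays. It fell from 13.09, 13.08 and 13.00 to 10.50, 9.89 and 9.93 in HCC827 and from 12.58, 12.61 and 12.65 to 8.63, 8.67 and 8.71 in NCI-H358, and A549 was below both lines in each state (log2 difference of the change -2.37 ± 0.174 (SE), adjusted p = 8.38e-09). The difference of CDH1 was short of the threshold without parental A549 array 1 (-2.26), mesenchymal A549 array 1 (-2.25) or mesenchymal HCC827 array 1 (-2.27).

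The promoters of these genes are shown because ZEB and SNAI proteins bind the E-box CACCTG. The reference sequence around each gene's start (300 bases, RefSeq, GRCh38.p14, 5′ to 3′ on the gene's strand) was searched for CACCTG on both strands, so that CAGGTG counts as well, and 15018 of the 19849 genes had such a sequence. Capitals mark the matches. Of the genes changed in the other lines only, RAB25 at chr1:156060910-156061209 (plus strand) held 2 matches and TMEM30B at chr14:61281289-61281588 (minus strand) held 4. Of the genes with opposite directions, ITGB6 at chr2:160200223-160200522 (minus strand) and FOXA1 at chr14:37595200-37595499 (minus strand) held 1 each. Only promoters with a match are printed. Among the other named genes that rose in A549 and fell in the others, PRRG4 and MYO1D held 1 each, and TGFA, EFNA1, GPR160 and SAMD9 none. Among those that fell in the other lines only, MUC1 held 2 and MUC16 1, and ADGRF1, EHF and CLDN7 none.
RAB25: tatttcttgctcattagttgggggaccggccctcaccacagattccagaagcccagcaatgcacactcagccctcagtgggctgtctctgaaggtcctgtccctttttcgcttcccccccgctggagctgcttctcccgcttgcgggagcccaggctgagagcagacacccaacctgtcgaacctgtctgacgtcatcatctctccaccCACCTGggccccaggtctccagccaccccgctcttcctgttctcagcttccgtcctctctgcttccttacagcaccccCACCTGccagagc
TMEM30B: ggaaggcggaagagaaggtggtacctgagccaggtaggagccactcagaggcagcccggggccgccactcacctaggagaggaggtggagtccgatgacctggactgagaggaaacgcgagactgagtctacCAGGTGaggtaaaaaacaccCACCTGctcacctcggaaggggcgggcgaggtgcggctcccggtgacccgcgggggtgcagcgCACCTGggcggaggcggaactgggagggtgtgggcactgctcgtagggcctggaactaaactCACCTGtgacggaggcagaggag
ITGB6: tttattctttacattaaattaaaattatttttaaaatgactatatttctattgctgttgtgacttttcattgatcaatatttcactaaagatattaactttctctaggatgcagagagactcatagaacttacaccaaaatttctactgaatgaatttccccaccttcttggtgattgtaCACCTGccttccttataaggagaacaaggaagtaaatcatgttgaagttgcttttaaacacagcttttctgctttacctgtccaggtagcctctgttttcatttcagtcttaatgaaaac
FOXA1: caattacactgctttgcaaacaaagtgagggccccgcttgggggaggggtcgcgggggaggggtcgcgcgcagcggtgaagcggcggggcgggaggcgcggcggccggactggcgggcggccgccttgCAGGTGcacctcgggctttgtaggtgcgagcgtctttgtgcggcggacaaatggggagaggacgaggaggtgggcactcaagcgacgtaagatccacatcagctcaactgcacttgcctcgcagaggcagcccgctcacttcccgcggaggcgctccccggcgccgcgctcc

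Among all promoters, 19.6% held the E-box. It was in 26 of 62 promoters (41.9%) of the genes that fell in the other lines only and in 9 of 17 (52.9%) of the genes that rose in A549 and fell in the others. It was also in 47 of 132 promoters (35.6%) of all genes that fell in all 3 lines and in 94 of 264 (35.6%) of those that fell in HCC827 and NCI-H358 without a called change in A549. It was in 6 of 53 (11.3%) of the genes that rose in A549 only. These counts are descriptions of the sequence, and binding was not measured.

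The 40 genes that rose in both other lines but not in A549 held regulators and products of the mesenchymal state. The median parental difference was 0.10 and the median mesenchymal difference -2.64, and 22 of the 40 differed between mesenchymal cells only. The interval of the change in A549 lay within 2-fold for 33 of the 40. Parental A549 was higher for 15, not called for 22 and lower for 3, and 7 genes were in the dim range in all 3 parental lines.

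ZEB1, the repressor of CDH1 and the ESRP genes, was at 9.23, 9.36 and 9.40 in parental A549 arrays and at 10.11, 10.13 and 10.12 in mesenchymal ones. It rose from 5.83, 6.15 and 6.07 to 10.23, 10.19 and 10.19 in HCC827 and from 5.84, 6.43 and 6.14 to 9.80, 9.89 and 9.70 in NCI-H358. Parental A549 was 9.54-fold above the other parental lines, and the mesenchymal levels were 0.12 apart on the log2 scale (log2 difference of the change -3.13 ± 0.141 (SE), adjusted p = 1.49e-11). The change in A549 was 0.79 (adjusted p = 2.52e-05), short of 2-fold.

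ZEB2, its relative, was at 4.89, 5.19 and 5.18 in parental and 4.55, 4.80 and 4.55 in mesenchymal A549 arrays. It rose from 2.74, 2.89 and 2.53 to 7.97, 8.14 and 8.03 in HCC827 and from 3.35, 3.40 and 3.18 to 5.49, 5.37 and 5.67 in NCI-H358. A549 arrays were the highest among parental cells and the lowest among mesenchymal cells (log2 difference of the change -4.22 ± 0.138 (SE), adjusted p = 3.42e-13). SNAI2, another repressor of the program, ran the other way, rising 13.1-fold in A549 from a parental level 23.9-fold below the other lines and 2.4-fold and 2.19-fold in the other lines. Of 12 EMT transcription factors, SNAI2, PRRX1 and KLF8 had a higher and TWIST2, ZEB1 and ZEB2 a lower change in A549 beyond 2-fold.

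FGFR1, a growth factor receptor known to be gained in EMT, was like ZEB1 higher in parental A549 than in the other parental lines. Unlike ZEB1, it changed by -0.44 in A549. It was at 9.84, 10.08 and 9.95 in parental and 9.53, 9.61 and 9.43 in mesenchymal A549 arrays, whereas it rose from 5.18, 5.30 and 5.58 to 8.51, 8.50 and 8.69 in HCC827 and from 5.69, 5.85 and 5.29 to 9.69, 9.81 and 9.86 in NCI-H358 (log2 difference of the change -4.13 ± 0.155 (SE), adjusted p = 1.74e-12). Some other genes of the class did not start higher in A549. MMP9, a gelatinase, rose 36.2-fold in HCC827 and 10-fold in NCI-H358, and was at 6.52, 6.43 and 6.41 and 5.92, 6.09 and 6.45 in parental and mesenchymal A549 arrays. EPYC, a small leucine-rich proteoglycan, and the noncoding RNA genes APCDD1L-DT and LINC01711 began within 2-fold of the mean of the other lines and differed in their change by -4.03, -5.09 and -3.94.

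Of 25 collagen chain genes, the difference of the change was lower in A549 for 13 and higher for 3, with a median of -1.05. In A549 9 of the 25 rose and 4 fell, whereas HCC827 had 13 that rose and 5 that fell, and NCI-H358 10 and 1. COL6A1 was at 8.01, 8.09 and 8.02 in parental and 7.68, 7.74 and 7.62 in mesenchymal A549 arrays, and rose from 7.17, 7.02 and 7.09 to 10.79, 10.82 and 10.97 in HCC827 and from 9.35, 9.36 and 9.39 to 10.74, 10.49 and 10.65 in NCI-H358 (log2 difference of the change -2.87 ± 0.0884 (SE), adjusted p = 1.69e-13). COL6A2 rose 8.68-fold and 5.41-fold in those lines. COL3A1 rose in every line, 3.38-fold in A549 but 428-fold in HCC827 and 6.61-fold in NCI-H358 (log2 difference of the change -3.98). COL11A1, COL8A1 and COL4A1 were the ones with a higher change in A549.

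Of the 110 genes changed in A549 only, 72 rose and 38 fell in A549. For the 72 the median level went from 4.93 to 8.79 in A549 and from 4.69 to 4.86 in the other lines, the median parental difference was 0.25 and the median mesenchymal difference 3.74. Parental A549 was higher for 18, lower for 21 and not called for 33. The lines differed between mesenchymal cells only for 33, in both states in the same order for 23, in parental cells only for 8 and with a turned order for 8. The parental A549 level was in the dim range for 32 of the 72 (44.4%), and that of all 3 parental lines for 20. The intervals of the changes in both other lines lay within 2-fold for 52 of the 72.

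DNER, a Delta- and Notch-like receptor known from neurons, had the largest change. It was at 4.92, 4.96 and 4.64 in parental and 12.74, 12.51 and 12.68 in mesenchymal A549 arrays, and at 5.29, 6.21 and 6.24 and then 6.51, 6.58 and 6.64 in HCC827. In NCI-H358 it was at 8.31, 8.14 and 8.07 and then 7.27, 7.41 and 7.43, so A549 was the lowest parental and the highest mesenchymal line (log2 difference of the change 7.87 ± 0.22 (SE), adjusted p = 5.79e-14). LCE3D, a gene of the cornified envelope of skin, was at 4.91, 5.10 and 4.80 in parental and 12.31, 12.67 and 12.57 in mesenchymal A549 arrays and between 4.37 and 4.97 in every array of the other lines (log2 difference of the change 7.30 ± 0.155 (SE), adjusted p = 4.77e-15).

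Some of the other genes that rose in A549 only encode secreted signals. IL33, an alarmin cytokine, was at 2.75, 2.66 and 2.75 in parental A549 arrays and at 9.48, 9.78 and 9.58 in mesenchymal ones, and no array of the other lines was above 3.43 (log2 difference of the change 6.90 ± 0.207 (SE), adjusted p = 1.22e-13). BMP2, a ligand of the TGFβ family, was at 3.93, 4.40 and 3.70 and then 11.05 ± 0.0531 (mean ± SD, n = 3) in A549, at 7.28, 6.79 and 6.83 and then 6.71, 6.91 and 7.16 in HCC827 and at 8.79, 8.82 and 8.79 and then 9.06, 9.07 and 9.04 in NCI-H358. BMP2 thus passed from the lowest to the highest line (log2 difference of the change 6.93 ± 0.187 (SE), adjusted p = 3.65e-14). IL1B, an inflammatory cytokine, rose 69.4-fold in A549, from 4.42, 4.26 and 4.63 to 10.27, 10.68 and 10.71, and had changes of -0.89 and -0.25 in HCC827 and NCI-H358.

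Some adhesion and matrix genes also rose in A549 only. ITGA1, the collagen-binding integrin chain, was at 2.74, 2.91 and 2.68 in parental and 7.26, 7.53 and 7.29 in mesenchymal A549 arrays, with changes of -0.14 and -0.37 in the other lines (log2 difference of the change 4.84 ± 0.163 (SE), adjusted p = 4.69e-13). ITGA11, a further collagen receptor chain, rose 11.3-fold, LAMA4, a laminin chain, 10.4-fold, and COL11A1, a fibrillar collagen chain, 19.9-fold in A549. TNC and CDH11 were different, because they were already high in other lines. TNC, a matrix glycoprotein, rose from 3.98, 4.11 and 3.71 to 8.13, 8.42 and 8.29 in A549, while every array of HCC827 and NCI-H358 was at 11.30 or above. CDH11, a mesenchymal cadherin, rose from 3.85, 3.48 and 3.41 to 10.65, 10.46 and 10.66 in A549 and was at 11.04 ± 0.0966 (mean ± SD, n = 3) in parental NCI-H358 arrays. In HCC827 CDH11 was at 3.12, 3.32 and 3.50 and then 3.41, 3.29 and 3.56.

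The 38 genes that fell in A549 only were mostly genes with a higher level in parental A549 than in the other lines. Their median level went from 8.57 to 5.19 in A549 and from 4.80 to 4.97 in the other lines. Parental A549 was higher for 33 of the 38, with a median difference of 3.41, and the median mesenchymal difference was 0.12. The lines differed as parental cells only for 22. Both other parental lines were in the dim range, below 4.67, for 15 of the 38, against 4369 of all 19849 genes. From such a level little fall could be measured in those lines. Read from parental arrays left out of the calls, the median parental difference was 3.43, 3.35 and 3.28.

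NTS, which encodes the peptide neurotensin, was at 8.93, 8.50 and 8.63 in parental and 3.94, 3.95 and 3.70 in mesenchymal A549 arrays. In HCC827 it was at 3.82, 3.80 and 3.72 and then 3.34, 3.52 and 3.57, and in NCI-H358 at 3.83, 3.43 and 3.45 and then 4.69, 4.02 and 4.97, and mesenchymal A549 arrays overlapped the parental arrays of both other lines (log2 difference of the change -5.17 ± 0.223 (SE), adjusted p = 9.63e-12). TGFBR3, the TGFβ coreceptor betaglycan, was at 8.69, 8.40 and 8.37 in parental and 5.23, 5.26 and 5.32 in mesenchymal A549 arrays, while its changes were 0.93 and 0.53 in the other lines (log2 difference of the change -3.95 ± 0.186 (SE), adjusted p = 2.71e-11). DCDC2, a doublecortin-domain protein of cilia, IGSF11, an adhesion protein, PDE1C, a phosphodiesterase, and PMP22, a membrane protein known from myelin, fell 31.9-fold, 25-fold, 19.8-fold and 12-fold. The complement gene C5 fell 11.3-fold, and COL4A4 5.97-fold. The difference of the change of COL4A4 was short of the threshold without parental A549 array 3 (-2.31) or mesenchymal A549 array 3 (-2.28).

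**Figure D4:**
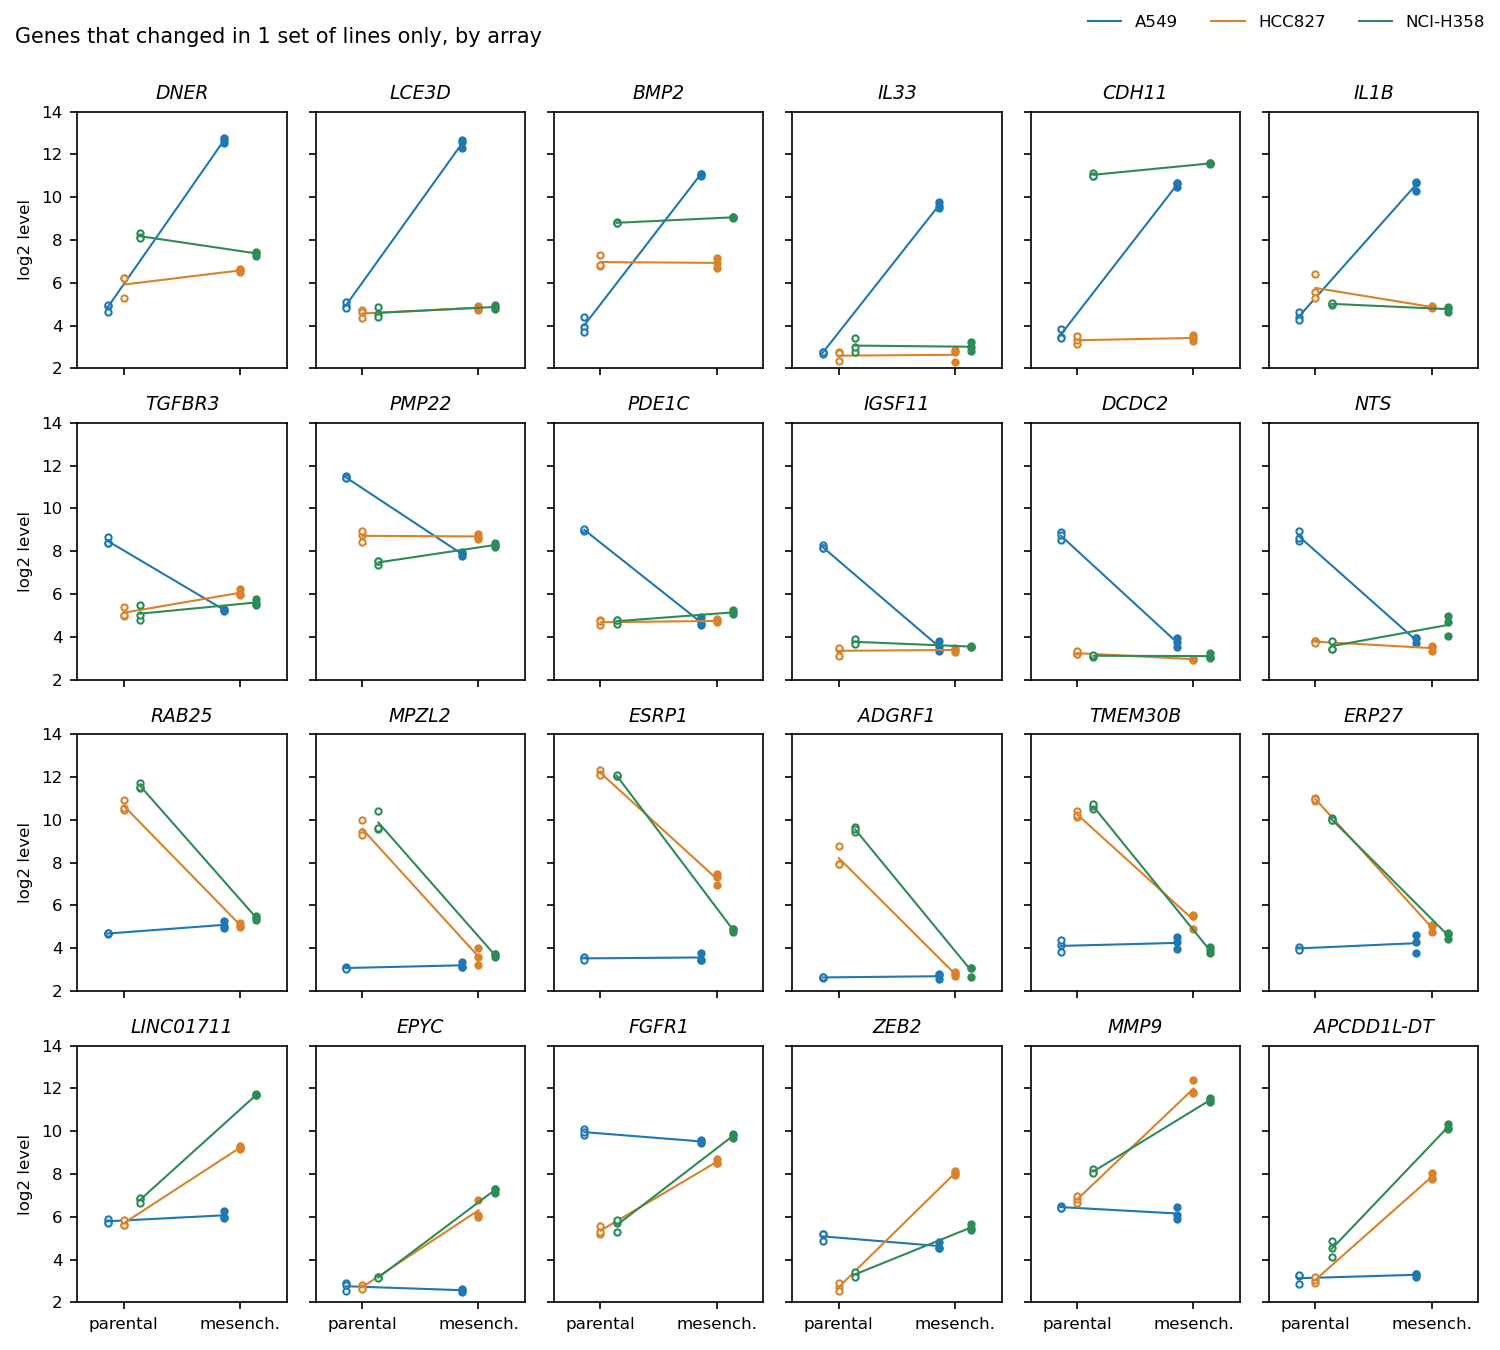
Log2 level by array of the genes with the largest differences of the change in 1 set of lines only. Rows from top to bottom show genes that rose in A549 only, fell in A549 only, fell in the other lines only and rose in the other lines only, with open circles for parental arrays, filled circles for mesenchymal arrays and lines between group means, 3 arrays per group. For RAB25 the A549 arrays start near the level to which the other lines fall, for ESRP1 they lie below it, and for NTS the A549 arrays fall to about the level of the others.

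A set of inflammatory cytokine genes rose most in A549. Of 22 chemokine and cytokine genes the change was higher in A549 for 11 and lower for 2, IL11 and CCL20, with a median of 0.855. The genes IL33 and IL1B belong to the class changed in A549 only, whereas CXCL8, IL1A and IL6 also changed in another line. CXCL8, the neutrophil chemokine interleukin 8, was at 5.07, 4.89 and 5.28 in parental and 11.62, 12.03 and 11.92 in mesenchymal A549 arrays. It was at 6.24, 6.28 and 6.28 and then 7.06, 6.89 and 6.81 in HCC827, and fell from 7.26, 7.63 and 7.57 to 5.68, 5.58 and 5.94 in NCI-H358. A549 was the lowest parental line and, 5.53 above the mean of the others, the highest mesenchymal line (log2 difference of the change 7.33 ± 0.156 (SE), adjusted p = 4.77e-15).

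IL1A, the membrane-linked relative of IL1B, went from 3.62, 3.73 and 3.99 to 10.79, 11.07 and 11.01 in A549, rose 3.08-fold in HCC827 and changed by -0.65 in NCI-H358 (log2 difference of the change 6.70 ± 0.215 (SE), adjusted p = 2.67e-13). IL6 went from 5.77, 5.58 and 5.49 to 11.94, 12.03 and 12.15 in A549, from 7.08, 7.43 and 7.55 to 8.93, 8.65 and 8.67 in HCC827 and from 6.18, 6.39 and 6.31 to 6.55, 6.56 and 6.82 in NCI-H358 (log2 difference of the change 5.55 ± 0.148 (SE), adjusted p = 3.29e-14). In A549 the parental and mesenchymal arrays of all these genes were far apart. The promoter of CXCL8 is shown because AP-1 and NF-kB sites in it are known to drive inflammatory induction. In the 300 bases at chr4:73740319-73740618 (plus strand), GRCh38.p14, capitals mark 1 match each to TGANTCA, the AP-1 letters, and to GGNNTTTCC, the letters of the NF-kB site of this promoter, both searched on both strands.
CXCL8: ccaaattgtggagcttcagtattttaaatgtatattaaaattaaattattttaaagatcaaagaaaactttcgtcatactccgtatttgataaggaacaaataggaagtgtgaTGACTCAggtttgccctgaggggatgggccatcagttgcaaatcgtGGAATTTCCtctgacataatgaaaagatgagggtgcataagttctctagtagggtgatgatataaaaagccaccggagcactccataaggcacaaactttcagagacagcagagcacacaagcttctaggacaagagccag

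Among all promoters 5.62% held TGANTCA and 6.54% held GGNNTTTCC. The letters GGNNTTTCC were taken from the CXCL8 site, so its match there was given in advance. Of the other cytokine genes described, IL1A held 2 matches to TGANTCA only and IL6 1 to GGNNTTTCC only. IL33 and IL1B held neither. Of the 53 promoters of genes that rose in A549 only, a class without CXCL8, 7.55% held TGANTCA and 7.55% held GGNNTTTCC. No binding was measured.

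Ligands, receptors and feedback genes of the TGFβ family moved in both directions. Of 34 such genes the change was higher in A549 for 7 and lower for 6, with a median of -0.092. INHBA, the activin A subunit, rose in every line, from 3.58, 2.92 and 3.53 to 13.37, 13.39 and 13.34 in A549, from 4.62, 5.25 and 4.96 to 11.92, 11.88 and 12.07 in HCC827 and from 5.84, 5.93 and 5.43 to 8.61, 8.70 and 8.68 in NCI-H358 (log2 difference of the change 5.05 ± 0.207 (SE), adjusted p = 5.21e-12). TGFB2, the gene for TGFβ2, fell in A549 from 8.96, 9.14 and 9.28 to 6.74, 7.00 and 6.81 and rose in NCI-H358 from 7.86, 7.86 and 7.63 to 10.48, 10.53 and 10.60. In HCC827 TGFB2 changed by 0.64, short of 2-fold (log2 difference of the change -3.98 ± 0.17 (SE), adjusted p = 8.59e-12).

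PMEPA1, a feedback inhibitor of SMAD signalling, rose 2.45-fold in A549 and 22.9-fold and 7.59-fold in the others, to mesenchymal levels that differed by -0.03. Parental A549 began at 11.94, and the mesenchymal means were 13.23, 13.21 and 13.31 in A549, HCC827 and NCI-H358. These lay near the top of all genes (percentiles 99.5, 99.5 and 99.6). Whether the range of the arrays limited the rise was not tested. Of the mesenchymal markers, CDH2, N-cadherin, rose in every line, with a difference of the change of -0.71. This difference came from HCC827, where CDH2 rose by 3.265. The rise of 1.94 in A549 was close to that of NCI-H358, 2.04 (limma adjusted p = 0.468 between them). VIM, vimentin, changed by 0.79 in A549 (adjusted p = 0.000132), short of 2-fold, and rose by 2.03 in HCC827 and 2.31 in NCI-H358, with a difference of the change of -1.38. This rests on 1 probe set, at 5.58 in parental A549. In parental HCC827 and NCI-H358 it was at 3.55 and 3.61, in the dim range of the arrays. The study reports increased expression of vimentin in its TGFβ-treated cells and lists a vimentin antibody among its reagents. The values given here are of RNA. For FN1, fibronectin, the difference was 0.13 (adjusted p = 0.725), but A549 lay between the other lines. FN1 rose by 3.98 in HCC827, 3.11 in A549 and 1.99 in NCI-H358. The change in A549 was thus lower than that of HCC827 by -0.87 (limma adjusted p = 0.0231). It was higher than that of NCI-H358 by 1.125 (limma adjusted p = 0.00447).

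The BMP-responsive genes ID1, ID3, ID4 and SMAD9 fell in HCC827 by -4.09, -2.98, -4.37 and -2.09. None of the 4 fell in A549 or, beyond 2-fold, in NCI-H358, and the difference of the change was 2.91 for ID1 and 2.38 for SMAD9, which rose by 1.59 in A549.

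Of 15 EGFR family genes, the change was higher in A549 for 6 and lower for 3. The receptor gene ERBB3 fell in every line, 3.5-fold in A549, 49.9-fold in HCC827 and 62.5-fold in NCI-H358, from a parental level 20.7-fold lower in A549 (log2 difference of the change 4.00 ± 0.268 (SE), adjusted p = 2.68e-09). The change of ERBB2 was -0.14 in A549, against -1.38 in HCC827 and -1.89 in NCI-H358. Among ligands, TGFA, NRG1, BTC and EGF had a higher change in A549 and AREG, whose probe set may share signal with a near-identical copy, changed by -6.23 there against -4.39 and -5.04. EGR1, an immediate-early target of ERK signalling, rose 4.06-fold in A549, fell 6.13-fold in HCC827 and changed by -0.05 in NCI-H358.

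Of 29 interferon-stimulated genes, the change was higher in A549 for 20 and the other 9 did not pass, with a median of 1.46, and 6 passed the 5-fold threshold. Of all genes, 6.24% had a higher and 4.89% a lower change in A549 at these thresholds. In HCC827 13 of the 29 fell and in NCI-H358 23, whereas in A549 5 fell and 2 rose. Of all 19849 genes, 1307 fell in HCC827, 1076 in NCI-H358 and 768 in A549. Parental A549 was lower than the other parental lines for 25, with a median difference of -2.89, and mesenchymal A549 for 18, with a median of -1.08. In parental A549, IFI44, RSAD2 and SAMD9 were in the dim range below 4.67 (3.35, 4.09 and 4.59). CMPK2 and IFIT2 were above it (4.74 and 5.58). From the dim range little further fall could be measured, which limits the count of falls in A549.

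The 6 genes past the 5-fold threshold were CMPK2, SAMD9, IFIT2, IFI44, RSAD2 and ISG15. SAMD9, an antiviral factor, rose from 4.85, 4.45 and 4.46 to 5.75, 5.76 and 5.71 in A549 and fell from 7.93, 7.74 and 7.83 to 6.75, 6.70 and 6.61 in HCC827 and from 8.41, 8.48 and 8.50 to 6.28, 6.16 and 6.12 in NCI-H358 (log2 difference of the change 2.87 ± 0.113 (SE), adjusted p = 3.15e-12). IFI44 rose from 3.27, 3.35 and 3.43 to 5.02, 4.88 and 5.06 in A549, far below the lowest array of the other lines, 8.61 in mesenchymal NCI-H358 (log2 difference of the change 2.71 ± 0.121 (SE), adjusted p = 1.43e-11). CMPK2 and RSAD2, neighbours that act in antiviral nucleotide metabolism, fell 17.6-fold and 16.6-fold in NCI-H358 and by less than 2-fold in HCC827. Of 19 antigen presentation genes, many of them also interferon targets, TAP2 and PSMB9 had a lower change in A549 beyond 2-fold and no other passed, with a median of 0.16.

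Of 21 NRF2 target genes, 12 fell and 1 rose in A549, 8 fell in HCC827 and 5 fell in NCI-H358. The difference of the change was lower in A549 for 8 and higher for 2, with a median of -0.709, and parental A549 was higher than the other parental lines for 19, with a median difference of 2.61. GPX2, a glutathione peroxidase, was at 11.22, 10.94 and 10.78 in parental and 5.43, 5.65 and 5.58 in mesenchymal A549 arrays. It fell from 7.48, 6.73 and 6.59 to 5.08, 5.03 and 5.28 in HCC827 and from 6.68, 6.71 and 6.87 to 5.29, 5.06 and 5.37 in NCI-H358 (log2 difference of the change -3.77 ± 0.215 (SE), adjusted p = 3.16e-10). ABCC2, a glutathione-conjugate exporter, fell 24.1-fold in A549, 6.59-fold in HCC827 and by -0.29 on the log2 scale in NCI-H358. The genes for glutathione synthesis, GCLC and GCLM, and the cystine carrier gene SLC7A11 changed by -1.60, -0.87 and -1.52 in A549 and by at most 0.67 in either direction in the other lines.

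AKR1C1 and AKR1C2, aldo-keto reductases of near-identical sequence whose signals may be shared, fell by -1.76 and -1.80 in A549 and remained 5.18 and 5.19 above the other mesenchymal lines. NQO1 and ABCC3 were the exceptions, with changes of -0.57 and -1.66 in A549 against -2.75 and -3.91 in HCC827. ALDH3A1, an aldehyde dehydrogenase named for its difference of the change, went from 11.45, 11.25 and 11.31 to 6.66, 6.67 and 6.52 in A549 and stayed the highest line (log2 difference of the change -3.87 ± 0.2 (SE), adjusted p = 9.1e-11). S100A4, a calcium-binding protein often used as a fibroblast marker, fell 26.7-fold in A549 and 2.12-fold and 2.9-fold in the others.

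Of 28 integrin and laminin genes, 9 were higher and 4 lower in their change in A549, with a median of 0.072. Of 31 lung and foregut lineage genes, 9 were higher and 1, SOX2, lower. Of 26 cell cycle genes, 8 were lower, among them MKI67, CCNA2 and the MCM helicase genes MCM2 to MCM5, and 1, CDKN1A, higher. The median over the cell cycle list was -0.749. By line, the median change of the list was 0.45 for HCC827, -0.367 for NCI-H358 and -0.672 for A549. With lines called beyond 2-fold, 6 of the 26 rose and 0 fell in HCC827, and 1 rose and 0 fell in NCI-H358. A549 had 2 that fell and 1 that rose. The lower difference thus reflects the rise in HCC827 as well as the fall in A549. MKI67 changed by -0.76 in A549 and 0.97 in HCC827.

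Of 33 genes of glucose, PDH and glutamine metabolism, 5 were higher (15.2%), 3 lower (9.09%) and 25 neither, against 6.24% and 4.89% of all genes. GLUL, glutamine synthetase, rose 4.46-fold in A549 and fell 4.86-fold in NCI-H358, with a change of 0.55 in HCC827 (log2 difference of the change 3.03 ± 0.0974 (SE), adjusted p = 2.7e-13). Sterol and fatty acid synthesis genes were higher for 1 and lower for 3 of 17, and MAPK output and feedback genes were higher for 4 of 18, with the other 14 short of the threshold. Liver-type secreted protein genes were higher for 4 and lower for 6 of 25. Among them C3 rose 3.57-fold in A549, and its difference of the change of 2.35 was short of the threshold without parental A549 array 1 (2.30), mesenchymal A549 array 2 (2.31) or mesenchymal NCI-H358 array 2 (2.32). CPS1 fell 6.72-fold in A549 and rose 6.37-fold in HCC827.

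**Figure D5:**
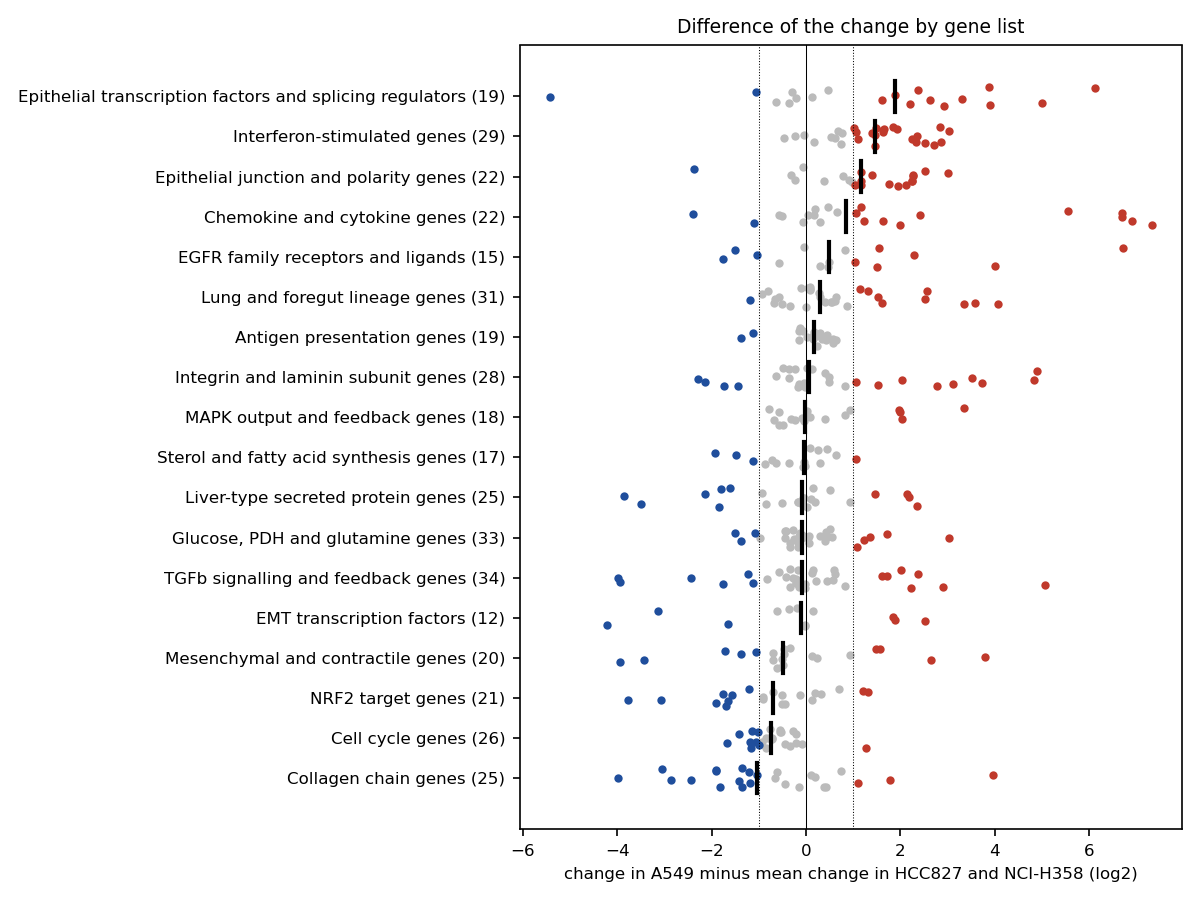
Difference of the change (change in A549 minus mean change in HCC827 and NCI-H358, log2, horizontal axis) of each measured gene in 18 gene lists, with the number of genes in brackets. Red and blue points passed an adjusted p of 0.05 and 2-fold (dotted lines), grey points did not, and black bars mark list medians. The medians run from -1.05 for collagen chain genes to 1.88 for epithelial transcription factors and splicing regulators.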

How the data were processed

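RNA of 18 samples was hybridized to Affymetrix U133 Plus 2.0 arrays. The values deposited by the authors are log2 RMA summaries for 19849 genes, 1 probe set per gene, and how that probe set was chosen is not given in the sources used here. All columns matched a sample title (0 unmatched). RefSeq held 19326 of the gene IDs, and 26 symbols that appear as dates were named by ID. The table names no genome build, so coordinates are given only for RefSeq promoters.

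One limma fit (version 3.58.1, R 4.3.3) over the 18 arrays (6 groups, no covariate) gave every contrast, with Benjamini-Hochberg adjustment over all genes, and the number of arrays limits the precision. The difference of the change was called at an adjusted p below 1e-05 and 5-fold. The study uses these thresholds for mesenchymal against parental cells of each line, not for a difference between lines. Changes per line, and differences between parental or mesenchymal cells, were called at an adjusted p below 0.05 and 2-fold. The genes, the 18 gene lists (416 of 421 genes measured) and the tests were chosen with earlier results of these data known. Genes were named as the 6 with the largest difference in each direction of the 3 main classes, the 3 in each direction that changed in the same direction unequally, the called members of each list (at most 5), CDH1, VIM and the marker genes, and some genes that this rule names are not reported here. Other list members were named after their values were seen. The steps were tested on simulated data. Alternatives were other thresholds, an intensity trend with robust variance, a filter on dim probe sets (12076 genes kept), array weights, median centring, each array left out, and parental levels read from arrays left out. Promoters (300 bases) were searched with Python 3 by exact letters. Other assays of the study were not analysed here.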

Additional observations from a re-analysis of the deposited data

Results flagged for a closer look

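The change upon EMT in A549 differed from that in HCC827 and NCI-H358 for 302 genes that were higher and 147 that were lower, by limma's test of the difference of the change. Of 82 named genes among them, 16 also changed unequally in HCC827 and NCI-H358 at the same thresholds, so that the mean of those lines stands for neither alone. The change in NCI-H358 minus that in HCC827 was -6.02 on the log2 scale for COL3A1, -4.09 for INHBA, -3.13 for ZEB2, -3.11 for CPS1, -2.83 for GLUL, -2.51 for COL6A1 and -2.41 for CXCL8. For the interferon-stimulated genes CMPK2 and RSAD2 it was -3.42 and -3.31. It was higher in NCI-H358 for the mucin genes MUC1 (4.02), MUC4 (3.00) and MUC16 (2.80), and also for ID1 (3.51), POSTN (3.09), EGR1 (2.57) and ABCC2 (2.43).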

How the results depend on the processing

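No paired analysis was possible because the labels carry no replicate numbers. With the difference of the change called at an adjusted p below 0.05 and 2-fold, there were 2209 genes in place of 449, of which 493 in place of 110 changed in A549 only and 460 in place of 131 in the other lines only. HCC827 was then apart in 1905 genes in place of 306 and NCI-H358 in 1853 in place of 349, and 184 list members passed in place of 63. The median parental difference was then 0.024 for genes that rose in A549 only, 1.53 for those that fell in A549 only, -2.35 for those that fell in the other lines only and 0.42 for those that rose in them. When A549 had to differ from each other line at 1e-05 and 5-fold, 253 genes remained, all of them among the 449, with 70 changed in the other lines only, and the medians were 3.65 for genes that fell in A549 only and -4.29 for those that fell in the other lines only. With lines called beyond 1.5-fold, 63 genes had opposite directions and 69 changed in A549 only, and the medians were 4.04 for genes that fell in A549 only, -2.06 for opposite genes higher in A549 and 1.75 for those lower. Median centring gave -3.55 for genes that fell in the other lines only and 1.80 for opposite genes lower in A549, and array weights 1.33 for the latter. With 1 array left out there were 444 to 460 genes, 27 to 30 with opposite directions, 108 to 113 changed in A549 only and 124 to 138 in the other lines only, and 411 of the 449 were called in all 18 fits. HCC827 was apart in 292 to 323 and NCI-H358 in 337 to 362 genes, and 80 to 82 of the 82 named genes were called. Over the fits with 1 array left out and the readings from left-out parental arrays, the median parental difference ran from 0.15 to 0.27 for genes that rose in A549 only, 3.28 to 3.53 for those that fell in A549 only, -3.75 to -3.43 for those that fell in the other lines only, 0.078 to 0.51 for those that rose in them, -2.78 to -2.06 for opposite genes higher in A549 (-2.70 to -2.28 without the left-out readings) and 0.15 to 2.12 for those lower, where the left-out readings reached 1.86. For opposite genes lower in A549 the median was 0.58 without parental A549 array 1, 0.61 without mesenchymal A549 array 2 and 0.69 without parental HCC827 array 1. The first parental array of each line bears a title number apart from the rest, which the labels do not call a batch, and without these arrays 445 genes were called.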

Other observations

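Most of the leukocyte and endothelial markers used to check the labels differed little between groups, with a few exceptions. CD14, a surface coreceptor for bacterial lipopolysaccharide, changed by -1.36 in A549 (5.84, 5.66 and 5.77 in parental and 4.02, 4.70 and 4.47 in mesenchymal arrays), and the difference of its change was -1.31 (limma adjusted p = 3.87e-05). KDR, the endothelial VEGF receptor, rose by 1.60 in NCI-H358, to 6.02, 6.66 and 5.92, and changed by 0.22 in A549. FCER1G, an immune receptor adaptor, rose by 1.23 in HCC827 and changed by 0.17 in A549. PTPRC, the leukocyte common antigen, was between 2.66 and 3.28 in every array.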
